A study of Drosophila simulans and Drosophila sechellia and Drosophila simulans x Drosophila sechellia with 72 samples.

Results

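Mitochondrial ribosomal protein genes were taken as the rows of the deposited expression table whose symbol starts with mRpL or mRpS followed by a digit, which gave 42 of 7836 genes. Of these, 27 code for proteins of the large mitoribosomal subunit (mRpL) and 15 for proteins of the small subunit (mRpS), and 25 carry the number of a bacterial counterpart while 17 carry a number above the bacterial series. The series compares hybrids between Drosophila sechellia and Drosophila simulans with both parental species, D. sechellia with D. simulans, adults with larvae, and octanoic acid medium with standard medium, given to the current or to the previous generation. Octanoic acid is the chief toxin of noni fruit, on which D. sechellia specialises. Histories are written with the previous medium first and the current one second (O, octanoic acid; S, standard), so that SO animals were on octanoic acid and their parents on standard medium. Each of the 24 groups of stage, genotype and history had 3 biological replicates, 72 libraries in all, and each library held polyA RNA from 10 entire adult females or 10 L3 larvae, also labelled female. All were reared at 20 °C under 16 h light and 8 h dark. Which species was the mother of the hybrids, the strains and the age of the adults are not given in the labels used here. Every value comes from whole animals, so levels are averages over all tissues.

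Mitochondria keep their own ribosome, which makes the few proteins encoded by mitochondrial DNA, all of them subunits of the respiratory chain or the ATP synthase. The ribosomal RNAs come from mitochondrial DNA, but every mitoribosomal protein is made from a nuclear gene, translated in the cytosol and imported. Large-subunit proteins surround the peptidyl transferase site and the tunnel through which the new chain leaves, and small-subunit proteins surround the mRNA and the decoding site. Many of these proteins descend from bacterial ribosomal proteins, and others are additions found in mitochondria. The genes tko and bonsai, which code for the Drosophila mitochondrial counterparts of the bacterial proteins S12 and S15, are in the table under those names and are therefore not among the 42.

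The values are FPKM (fragments per kilobase of transcript, relative to the mapped fragments of the library) as deposited, and a hybrid library is the sum of its D. sechellia and its D. simulans allele column. The scale differs between genotypes. The FPKM of all genes in a library summed to a median of 1062200 in hybrid adults, 1298330 in D. sechellia adults and 501545 in D. simulans adults, and to 872881, 1347740 and 486597 in larvae of hybrids, D. sechellia and D. simulans. Comparisons of libraries between genotypes were therefore also fitted after 2 other scalings, median-ratio rescaling and division of each library by its own total. Results of the second are given for the comparison of the species only. Allelic ratios, and the parental minus allelic ratio, were fitted on scaled and on unscaled columns, without median-ratio rescaling. Read depth is unknown, so no counting intervals are given. Whether values listed at 0 are failed estimates was not tested. The cytosolic ribosomal protein genes RpL31 and RpL39 were also listed at 0 in all 12 hybrid adult libraries. Of the cytosolic ribosomal protein genes, D. simulans had RpS28-like alone at 0 in every adult library, and none at 0 in every larval library. Unless stated otherwise, differences are in log2(FPKM + 1), p-values are from limma with Benjamini-Hochberg adjustment over all genes of a comparison, and a call is an adjusted p under 0.05.

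The members were moderately expressed and differed among themselves. Averaged over the 48 libraries of the parental species, mRpL33 had the highest level per length, 235.8 FPKM, followed by mRpL23, a protein of the tunnel exit, with 179.97 FPKM and mRpL52 with 164.8 FPKM. The lowest means were 27.4 FPKM for mRpL18, a 5S rRNA-binding protein in bacteria, 31.3 FPKM for mRpS29, whose human counterpart is the GTP-binding protein DAP3, and 35.6 FPKM for mRpS18B. The mean of mRpL18 includes 24 D. simulans libraries in which it was listed at 0. The median member in a library stood at 94.2 to 158.02 FPKM in D. sechellia adults and 47.1 to 63.5 FPKM in D. simulans adults, and at 47.9 to 64.3 FPKM in D. sechellia larvae and 16.6 to 26.3 FPKM in D. simulans larvae.

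As a share of a library's summed FPKM, which does not depend on its overall scale, the 42 genes took 0.726% to 1.04% in hybrid adults (median 0.888%), 0.419% to 0.58% in D. sechellia adults (median 0.461%) and 0.502% to 0.595% in D. simulans adults (median 0.549%). In larvae the shares were 0.27% to 0.449% in hybrids (median 0.35%), 0.207% to 0.266% in D. sechellia (median 0.219%) and 0.182% to 0.233% in D. simulans (median 0.201%). In each genotype the 12 adult libraries all lay above the 12 larval ones. Hybrids lay above both parental species at both stages, in larvae narrowly (at least 0.27%, against at most 0.266% in D. sechellia). The share is a sum in which members with high FPKM weigh most, and it was not computed without them. Against the parental mean, 19 members were called higher and 16 lower in hybrid larvae, where 29% of tested genes were higher and 38.2% lower. Among the higher ones were mRpL21 (3.4) and mRpS28 (2.84). D. sechellia and D. simulans overlapped in adults and in larvae.

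**Figure D1:**
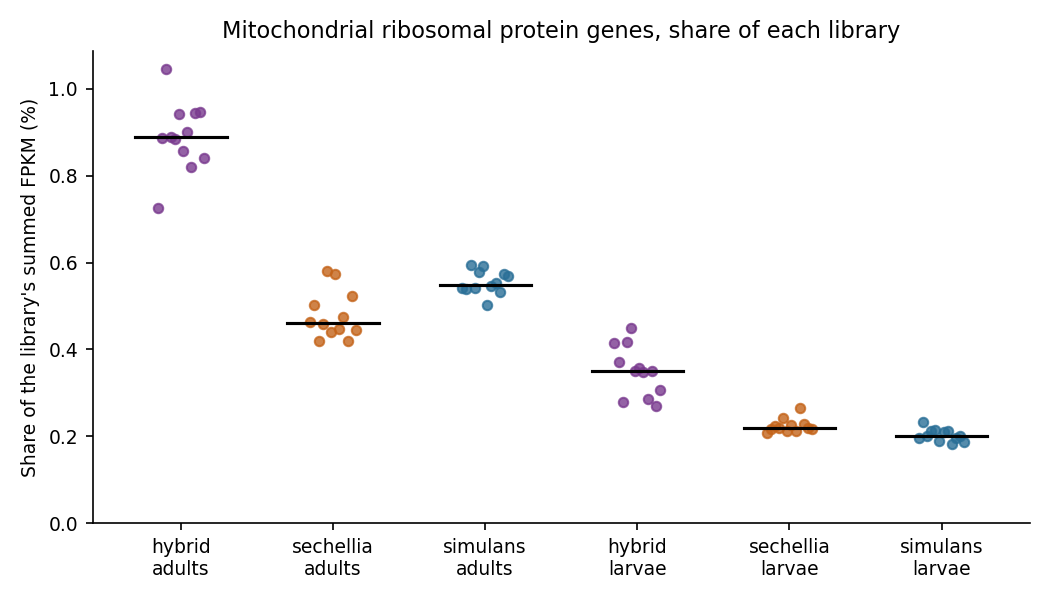
Share of each library's summed FPKM, in percent, that fell on the 42 mitochondrial ribosomal protein genes, with 1 point per library, 12 per stage and genotype, and a bar at the median. Adults lie above larvae within each genotype, with medians of 0.888% against 0.35% in hybrids, 0.461% against 0.219% in D. sechellia and 0.549% against 0.201% in D. simulans.

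Adults were compared with larvae in each genotype to ask how far life stage sets the level of these genes. Nearly all members were higher in adults. In hybrids 39 of 41 tested members rose and none fell, where 49.7% of all tested genes rose and 25.5% fell, and the median member difference was 1.84 against 0.67 over all genes. In D. sechellia all 42 rose, where 43.4% of genes rose and 36.2% fell, and the median was 1.01 against 0.14. In D. simulans 40 of 41 rose and 1 fell, where 41.7% of genes rose and 41.9% fell, and the median was 1.39 against -0.01. Both subunits took part: among large-subunit genes 25 of 26 rose in hybrids, 27 of 27 in D. sechellia and 25 of 26 in D. simulans, and among small-subunit genes 14, 15 and 15 of 15. The 2 hybrid members without a call were mRpL22, with a difference of 0.56 (SE 0.38, adjusted p = 0.18), and mRpS2, with 1.13 (SE 0.6, adjusted p = 0.0933). After median-ratio rescaling 23 members rose and 0 fell in hybrids (28.9% and 39.6% of genes; median 0.79), 37 rose and 0 fell in D. sechellia (34.7% and 45.1% of genes; median 0.71), and 39 rose and 1 fell in D. simulans (36% and 48.3% of genes; median 1.19). Counts over members listed above 0 in every library were 31 of 32 higher in hybrids and 35 of 36 in D. simulans.

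Among proteins of the large subunit, mRpL17, a neighbour of the tunnel exit in bacteria, had 111 to 291 FPKM in D. sechellia adults (median 160.4) and 41.2 to 64.1 FPKM in D. sechellia larvae (median 51.5). The stages did not overlap, and the difference was 1.74 (SE 0.14, adjusted p = 3.79e-10). mRpL23 had 249 to 577 FPKM in D. sechellia adults (median 451) and 97.7 to 169 FPKM in larvae (median 133), a difference of 1.67 (SE 0.13, adjusted p = 2.79e-10), again without overlap. mRpL18 had 73 to 106 FPKM in D. sechellia adults and 13.5 to 24.7 FPKM in D. sechellia larvae, the widest gap among the members there, 2.11 (SE 0.1, adjusted p = 9.24e-14). The genes mRpL42 and mRpL52, both without bacterial counterpart, had the smallest stage differences in D. sechellia, 0.33 (SE 0.12, adjusted p = 0.0194) and 0.43 (SE 0.17, adjusted p = 0.0289). Both calls were lost after median-ratio rescaling, with 0.02 for mRpL42 (adjusted p = 0.902) and 0.12 for mRpL52 (adjusted p = 0.563).

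Among proteins of the small subunit, mRpS7, which lies in the head of the subunit, had 174 to 265 FPKM in D. sechellia adults and 44.4 to 72.5 FPKM in larvae. The difference was 1.86 (SE 0.09, adjusted p = 1.35e-13). mRpS18C, 1 of the 2 S18-type members, had 149.5 ± 31.1 FPKM in adults and 44.1 ± 7.93 FPKM in larvae of D. sechellia (SD, n = 12 each), a difference of 1.73 (SE 0.12, limma adjusted p = 2.34e-11). In D. simulans mRpS11, a protein of the subunit's platform, had 46.2 to 62.5 FPKM in adults and 10.1 to 16.1 FPKM in larvae, a difference of 2.01 (SE 0.08, adjusted p = 7.97e-15). In hybrids mRpS23 had 164 ± 34.4 FPKM in adults and 19.2 ± 10.8 FPKM in larvae (SD, n = 12 each), a difference of 3.23 (SE 0.24, limma adjusted p = 7.71e-11). None of these 4 genes overlapped between the stages.

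mRpL43, a large-subunit protein without bacterial counterpart, went the other way in D. simulans. It had 24.4 to 31.7 FPKM in D. simulans adults (median 27.6) and 31.8 to 65 FPKM in D. simulans larvae (median 44.6), a difference of -0.67 (SE 0.08, adjusted p = 2.31e-07). The ranges met without overlapping. In D. sechellia the same gene had 40.9 to 64.2 FPKM in adults and 28.8 to 49.5 FPKM in larvae and rose by 0.62 (SE 0.09, adjusted p = 4.03e-06), and in hybrids it rose by 0.84 (SE 0.23, adjusted p = 0.00227), which became -0.25 without a call after median-ratio rescaling. It was the only member with a call below 0 in a stage comparison within a genotype. After that rescaling the difference was -0.88 in D. simulans and 0.32 in D. sechellia.

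Several of the members with the widest gaps in D. simulans and in hybrids had larvae listed at 0. In D. simulans adults mRpS16 had 119 to 181 FPKM, mRpL30 had 32 to 44.9 FPKM and mRpL23 had 105 to 166 FPKM, while mRpL16, which sits near the tRNA path of the large subunit, had 35.5 to 45.4 FPKM in 10 libraries and was listed at 0 in SO replicate 1 and OO replicate 1. In D. simulans larvae mRpS16 was listed at 0 in 10 of 12 libraries, mRpL30 in 9, mRpL23 in 6, mRpL16 in 12 and mRpL15 in 1. In hybrids mRpL30 had 62.2 to 214 FPKM in adults, against at most 35.6 FPKM in larvae, where it was listed at 0 in 5 of 12 libraries. mRpL18 had 14.9 to 116 FPKM in hybrid adults, against at most 19.5 FPKM in hybrid larvae, where 7 libraries were at 0, so that the stages overlapped. mRpS25 had 54.4 to 160 FPKM in hybrid adults, against at most 53 FPKM in hybrid larvae, where 2 libraries were at 0. mRpL33 ranged from 0 to 881 FPKM in hybrid adults and from 0 to 219 FPKM in hybrid larvae, so its stages overlapped, and its call (adjusted p = 0.0211) was lost after median-ratio rescaling (adjusted p = 0.1).

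**Figure D2:**
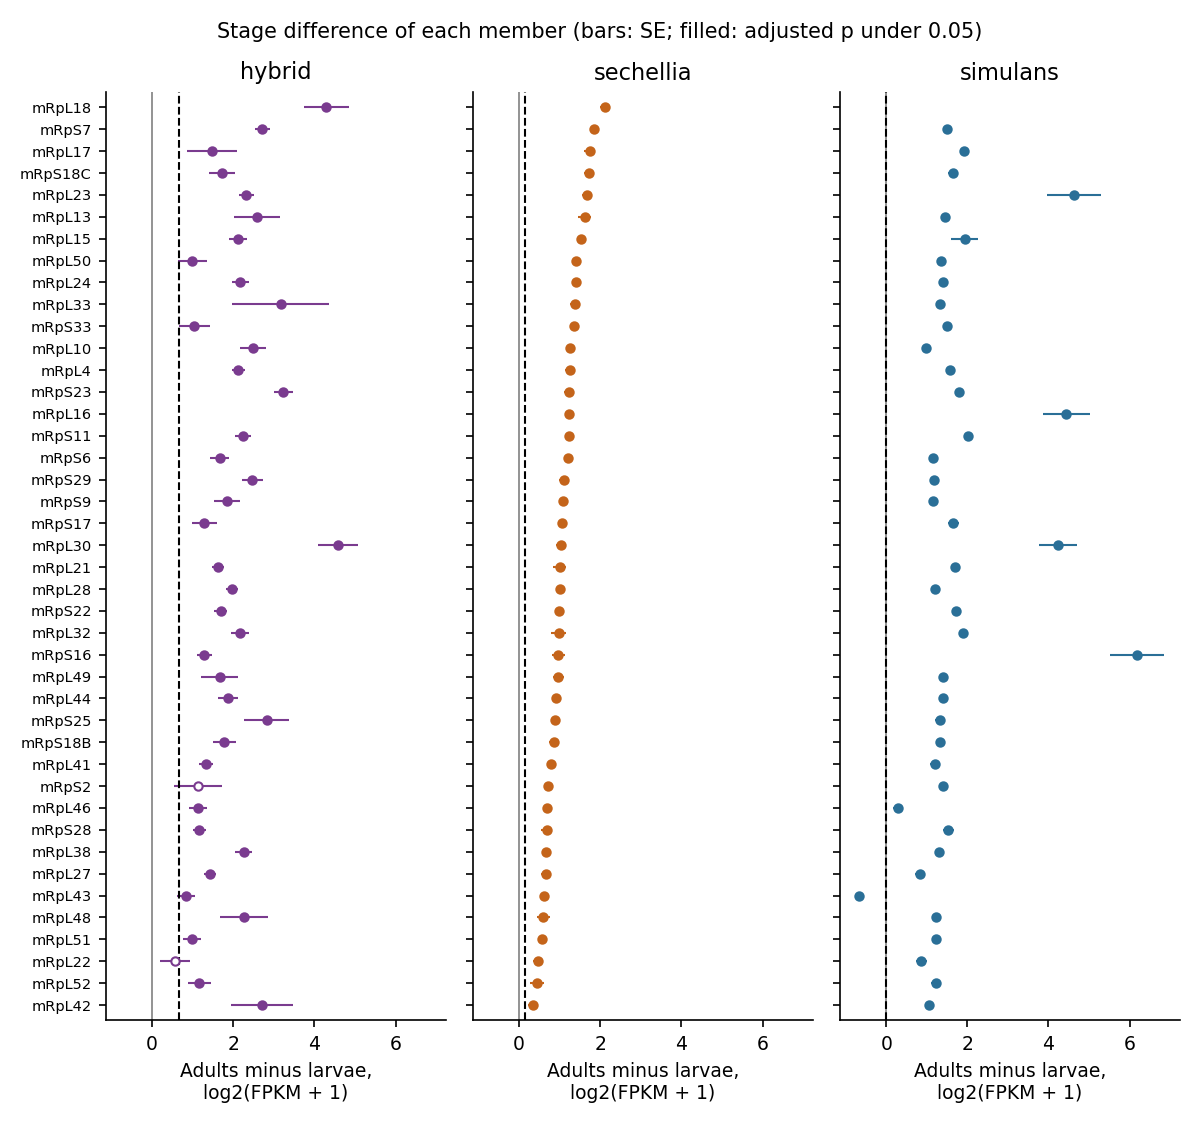
Difference of adults minus larvae for each member in log2(FPKM + 1), with standard errors, in hybrids (41 tested), D. sechellia (42) and D. simulans (41), ordered by the D. sechellia value; filled points have an adjusted p under 0.05 and the dashed line is the median of all tested genes. Points lie right of 0 apart from mRpL43 in D. simulans at -0.67, and among the wide bars in D. simulans and hybrids are genes listed at 0 in some libraries.

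Markers of organs that differ between the stages moved with this comparison. All 10 egg and ovary genes found were higher in adults in each genotype, with summed levels of 22233 to 39118 FPKM in hybrid adults, 6426 to 24229 in D. sechellia adults and 9372 to 14687 in D. simulans adults, and of 0 to 7.05, 7.97 to 24 and 0.224 to 36.3 FPKM in their larvae; bcd, Cp7Fa, Cp7Fb, Cp7Fc, Vm26Aa and Vm26Ab were listed at 0 in all hybrid larvae. All 5 muscle genes (fln, Mhc, Mlc2, TpnC4 and up) were also higher in adults. They summed to 1846 to 5131, 14106 to 51268 and 5095 to 8075 FPKM in adults of hybrids, D. sechellia and D. simulans. Their sums in larvae were 131 to 1834, 1553 to 17720 and 357 to 6934 FPKM. Mlc2 averaged 6850 FPKM in D. sechellia larvae and 2455 FPKM in D. simulans larvae. There fln averaged 0.126 and 0.399 FPKM, and TpnC4 0.663 and 0.581 FPKM. Both fln and TpnC4 were listed at 0 in all hybrid larvae. All 3 larval fat body genes were lower in adults, with sums of 5.29 to 159.7, 184 to 1771 and 1.3 to 85.4 FPKM in adults of hybrids, D. sechellia and D. simulans, and of 4444 to 14215, 8643 to 22127 and 16651 to 27038 FPKM in larvae. All 7 testis genes were lower in adults, and 6 of them were listed at 0 in all hybrid adults. The testis genes summed to at most 1.1 FPKM in adults of any genotype and to 32.2 to 271 FPKM in hybrid larvae, 175 to 485 in D. sechellia larvae and 112 to 731 in D. simulans larvae, although the larvae are labelled female. Some of these sums also stood apart between genotypes on the deposited scale, such as those of muscle genes in D. sechellia and D. simulans adults. The part of these tissues in the stage result, and in the species and hybrid comparisons below, was not tested. In whole animals fewer cells of a type and less RNA per cell cannot be told apart.

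Other genes of mitochondrial gene expression had calls in the same direction. In hybrids, D. sechellia and D. simulans, tko rose by 1.67, 0.67 and 1.46 and bonsai by 2.57, 1.29 and 1.37, and the 2 mitochondrial translation factor genes in the table also rose in each genotype. Of mitochondrial tRNA synthetase and amidotransferase genes, 8 of 9 rose in hybrids, 7 of 9 in D. sechellia and 8 of 8 in D. simulans, and none fell. Of genes for transcription, replication and RNA handling in mitochondria, 8 of 8, 10 of 10 and 9 of 9 rose. Nuclear genes of the respiratory chain and ATP synthase had 37 higher and 8 lower of 46 in hybrids and 37 higher and 9 lower of 46 in D. sechellia and in D. simulans, with medians of 2.85, 2.34 and 2.17. Protein import genes had 6 higher and 2 lower of 11, 8 and 2 of 12, and 9 and 3 of 12. Median-ratio rescaling left the counts of respiratory genes as they were and gave tRNA synthetases 4 higher and 1 lower in hybrids, 6 and 1 in D. sechellia and 6 and 0 in D. simulans. Cytosolic ribosomal protein genes had 35 higher and 7 lower of 48 in hybrids, 2 higher and 37 lower of 52 in D. sechellia, and 37 higher and 2 lower of 52 in D. simulans. After median-ratio rescaling these last counts became 6 and 25, 1 and 47, and 11 and 2, so that the direction for cytosolic ribosomal proteins in hybrids turned with the scale.

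The stage difference was itself compared between the species by an interaction term, D. sechellia minus D. simulans. It was above 0 for 5 members and below 0 for 24 of 42, where 31% of tested genes were above and 21.7% below, and the median was -0.42 against 0.09 over all genes. After median-ratio rescaling the counts were 2 and 25, where 31.1% of genes were above and 25.8% below. Among the 36 members above 0 in every library the counts were 4 and 20. mRpL43, opposite in direction between the species, had an interaction of 1.29 (SE 0.12, adjusted p = 2.78e-11). mRpL46 had 0.4 (SE 0.16, adjusted p = 0.0304), which lost its call after median-ratio rescaling (adjusted p = 0.159) and when any of 5 libraries was left out, namely D. sechellia larvae SO replicate 2 and D. simulans larvae OO, OS, SO and SS replicate 2, with adjusted p of 0.0504 to 0.0545. The calls for mRpS16, mRpL30 and mRpL16 below 0, and for mRpL18 above 0, rest on D. simulans libraries listed at 0; mRpL18 has no stage difference in D. simulans to compare. Among genes without such values, the widest below 0 were mRpL32 with -0.92 (adjusted p = 0.000674), mRpS28 with -0.85 (adjusted p = 0.000518) and mRpL52 with -0.81 (adjusted p = 0.00218). Of the cytosolic ribosomal protein genes 47 of 52 were below 0 and 0 above, 49 and 0 after median-ratio rescaling.

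D. sechellia was then compared with D. simulans within each stage. On the deposited scale almost every member was higher in D. sechellia, but the direction depended on the scale. In adults 41 of 42 members rose and none fell, where 77% of all tested genes rose and 5.96% fell, and the median was 1.02 against 0.74 over all genes. After median-ratio rescaling 19 members were higher and 4 lower, against 38.3% and 35% of genes, and the median was 0.21 against 0.04. With each library divided by its total, 6 were higher and 27 lower, against 21.6% and 59.4% of genes, and the median was -0.35 against -0.47. In larvae 41 rose and 1 fell, where 59.2% of genes rose and 8.74% fell, with a median of 1.44 against 0.58. The counts for larvae were 31 higher and 1 lower after median-ratio rescaling (34.3% and 32.3% of genes; median 0.8 against 0.01) and 15 higher and 13 lower with equal totals (13.9% and 65.3% of genes; median 0.05 against -0.66). The member median lay above the median of all genes by 0.28, 0.17 and 0.12 in adults and by 0.86, 0.79 and 0.71 in larvae on the 3 scales, in that order.

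**Figure D3:**
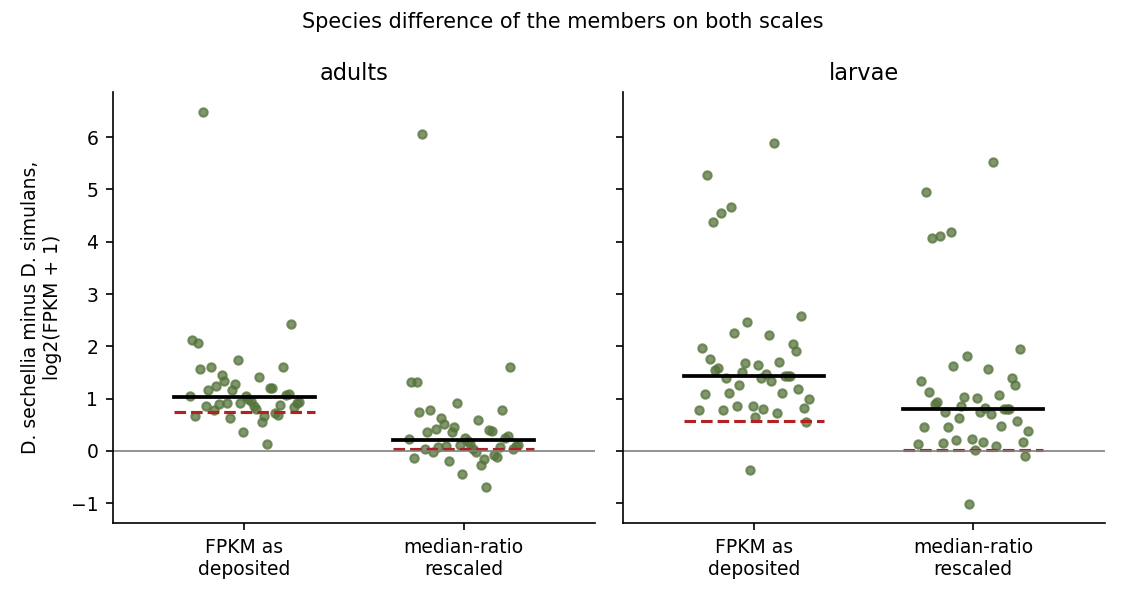
Difference of D. sechellia minus D. simulans for the 42 members in log2(FPKM + 1), in adults (left) and larvae (right), on the deposited FPKM scale and after median-ratio rescaling, with 1 point per member. The black bar is the member median (adults 1.02 and 0.21, larvae 1.44 and 0.8) and the dashed red bar the median of all tested genes (adults 0.74 and 0.04, larvae 0.58 and 0.01). With each library divided by its total, not drawn, the member medians were -0.35 in adults and 0.05 in larvae.

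The small-subunit gene mRpS33 differed between the species by more than other members measured above 0 throughout. It had 251 to 389 FPKM in D. sechellia adults (median 314) and 49.4 to 66.5 FPKM in D. simulans adults (median 58.3). It had 97.2 to 193 FPKM in D. sechellia larvae (median 127) and 15.6 to 30.4 FPKM in D. simulans larvae (median 19.6). The species did not overlap at either stage, and the differences were 2.42 in adults (SE 0.07, adjusted p = 5.4e-17; 1.61 after median-ratio rescaling and 1.05 with equal totals) and 2.58 in larvae (adjusted p = 3.28e-14). mRpL13, a bacterial-type protein of the large subunit, had 122 to 314 FPKM in D. sechellia adults and 44.2 to 56.2 FPKM in D. simulans adults, a difference of 2.13 (SE 0.13, adjusted p = 9.28e-12; 1.31 and 0.76 on the other scales). mRpL42 had 185 to 298 FPKM in D. sechellia adults and 64.2 to 81 FPKM in D. simulans adults, a difference of 1.74 (SE 0.07, adjusted p = 8.56e-15; 0.93 and 0.37 on the other scales). The ranges of both genes stood apart. mRpS17, which binds 16S rRNA in bacteria, was the member with no call in adults: it had 107 to 133 FPKM in D. sechellia and 71.4 to 131 FPKM in D. simulans adults, overlapping ranges with a difference of 0.13 (SE 0.09, adjusted p = 0.169), -0.69 after median-ratio rescaling (adjusted p = 6.06e-06) and -1.24 with equal totals.

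mRpL43 was the only member lower in D. sechellia larvae. It had 28.8 to 49.5 FPKM in D. sechellia larvae and 31.8 to 65 FPKM in D. simulans larvae, and the ranges overlapped. The difference was -0.37 (SE 0.1, adjusted p = 0.00377), -1.01 after median-ratio rescaling, and its call was lost when all 36 larval libraries shared 1 estimate of the spread (adjusted p = 0.0724). In adults mRpL43 was higher in D. sechellia by 0.92 (adjusted p = 5.4e-11), with 40.9 to 64.2 FPKM in D. sechellia adults and 24.4 to 31.7 FPKM in D. simulans adults. The adult difference depended on the scale, with 0.12 after median-ratio rescaling (adjusted p = 0.143) and -0.43 with equal totals, while the larval one was -1.78 with equal totals.

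No D. sechellia library was listed at 0 for any of the 42 members, while in 6 of them some or all D. simulans libraries were. mRpL18 had 73 to 106 FPKM in D. sechellia adults and 13.5 to 24.7 FPKM in D. sechellia larvae, against 0 in all 24 D. simulans libraries. mRpL16 had 29.1 to 46.4 FPKM in D. sechellia larvae, against 0 in all 12 D. simulans larvae, and 72.4 to 106 FPKM in D. sechellia adults, against 0 in 2 of 12 D. simulans adults. Its adult call (adjusted p = 0.00265) was lost after median-ratio rescaling (adjusted p = 0.0638) and with equal totals (adjusted p = 0.235). mRpS16, an early-binding protein of small-subunit assembly in bacteria, had 77.6 to 167 FPKM in D. sechellia larvae, and 68.2 and 70.8 FPKM in the 2 D. simulans larval libraries (SO replicate 2 and OO replicate 2) where it was above 0. mRpL30 had 36.6 to 75 FPKM in D. sechellia larvae, and 17.9, 19.95 and 18.6 FPKM in D. simulans larvae OS replicate 1, OO replicate 1 and OO replicate 3, with 0 in the other 9. mRpL23 had 97.7 to 169 FPKM in D. sechellia larvae and 21.8 to 44.3 FPKM in the 6 D. simulans larvae above 0. mRpL15 had 22.5 to 35 FPKM in D. sechellia larvae and 13.6 to 24.4 FPKM in 11 D. simulans larvae, with 0 in SO replicate 3. In D. simulans no library had a value of these 6 genes between 0 and 13.6 FPKM. No fold is given for the groups listed at 0. Without members listed at 0 in any library, 39 of 40 members were higher in D. sechellia adults, and 35 of 36 were higher and 1 lower in D. sechellia larvae.

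**Figure D4:**
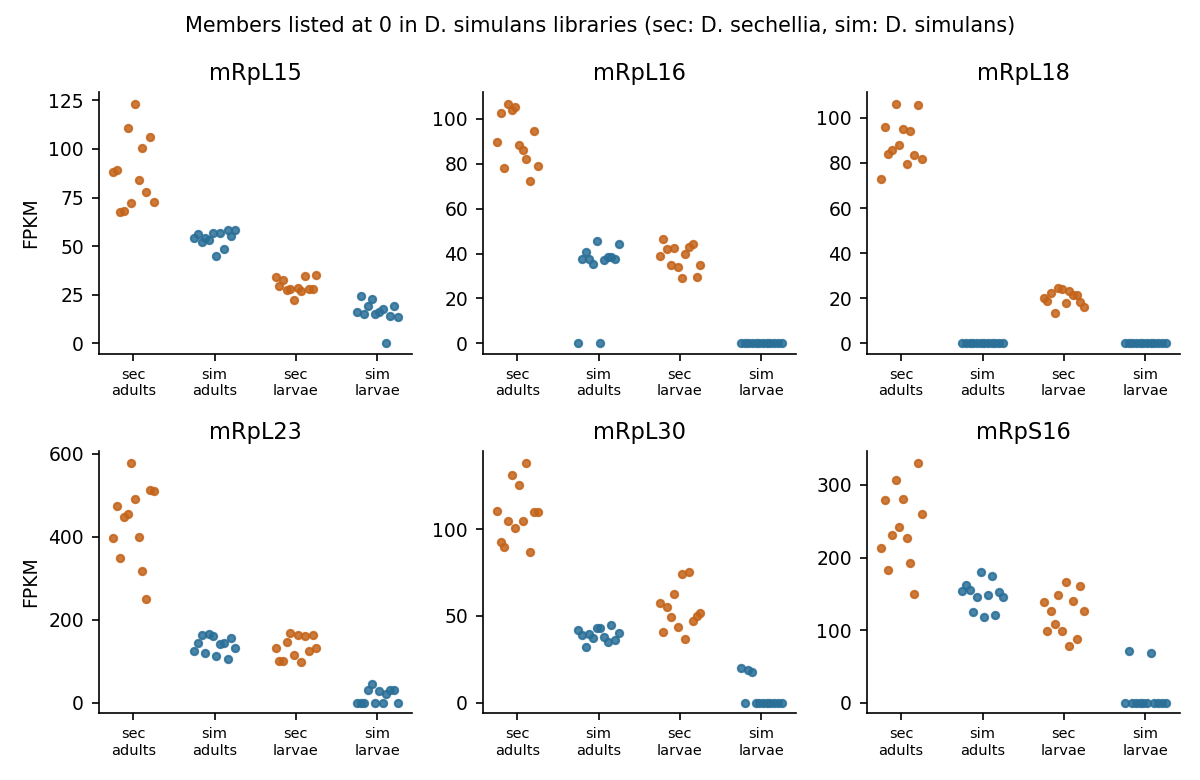
FPKM in each library of the 6 members that were listed at 0 in D. simulans libraries, in D. sechellia and D. simulans adults and larvae, with 12 points per group. No D. sechellia point is at 0, while mRpL18 is at 0 in all 24 D. simulans libraries and mRpL16 in all 12 D. simulans larvae.

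On the deposited scale tko and bonsai were higher in D. sechellia, by 1.32 and 0.56 in adults and by 2.1 and 0.64 in larvae, each with a call, but with equal totals 0 of the 2 were higher in adults and 1 in larvae. Respiratory chain and ATP synthase genes had 39 higher and 2 lower of 41 in adults (median 1.44) and 41 higher and 0 lower of 46 in larvae (median 1.11). Cytosolic ribosomal protein genes had 48 higher and 3 lower of 51 in adults (median 0.75) and 49 higher and 2 lower of 52 in larvae (median 1.43). These medians turned with the scale too: with equal totals they were 0.05 in adults and -0.27 in larvae for respiratory genes, and -0.61 and -0.01 for cytosolic ribosomal protein genes.

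Hybrids were compared with the mean of the log2 values of both parental species. A level midway in FPKM counts as higher on this scale where the parents differ. In adults 27 of 42 members rose and 11 fell, where 51.8% of all tested genes rose and 25.7% fell, with a median of 0.92 against 0.46. In larvae 19 rose and 16 fell, where 29% of genes rose and 38.2% fell, with a median of 0.17 against -0.16. After median-ratio rescaling 18 were higher and 15 lower in adults (32.6% and 43.4% of genes; median 0.1) and 18 and 16 in larvae (29.2% and 41.6% of genes; median 0.11). The members spread widely, from -4.93 to 3.67 in adults and from -4.01 to 3.4 in larvae.

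mRpL21, a bacterial-type protein of the large subunit, was the highest member in hybrids relative to the parents at both stages. It had 819 to 1892 FPKM in hybrid adults (median 1548), against 84.4 to 201 FPKM in D. sechellia adults and 74.5 to 93.6 FPKM in D. simulans adults. It had 373 to 672 FPKM in hybrid larvae, against 46.5 to 103 FPKM in D. sechellia larvae and 17.6 to 35.2 FPKM in D. simulans larvae. Hybrids lay above both parents without overlap, by 3.67 in adults (SE 0.12, adjusted p = 2.53e-21) and 3.4 in larvae (SE 0.12, adjusted p = 6.02e-20). mRpS28 had 655 to 1097 FPKM in hybrid adults, against 112 to 235 FPKM in D. sechellia adults and 62.6 to 102 FPKM in D. simulans adults, and was higher by 2.89 (SE 0.11, adjusted p = 7e-20). In larvae it had 223 to 652 FPKM in hybrids, against 77.5 to 126 FPKM in D. sechellia and 15.9 to 39.8 FPKM in D. simulans, and was higher by 2.84 (SE 0.14, adjusted p = 1.85e-16). mRpL43 had 134 to 354 FPKM in hybrid adults, above both parents, and was higher by 2.47 (SE 0.11, adjusted p = 9.49e-18). mRpS16 was called higher in hybrid larvae (adjusted p = 3.67e-06), with 55.6 to 219 FPKM, a range that overlapped the 77.6 to 167 FPKM of D. sechellia larvae, and its D. simulans larvae were at 0 in 10 of 12 libraries.

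At the other end were members listed at or near 0 in many hybrid libraries. mRpL16 was listed at 0 in 10 of 12 hybrid adults, with 7.91 and 9.57 FPKM in SS replicate 1 and OS replicate 1, and in all 12 hybrid larvae; D. simulans was at 0 in 2 adult and 12 larval libraries. mRpL17 had 0 to 34.6 FPKM in hybrid adults (median 2.32), against 111 to 291 FPKM in D. sechellia adults and 44.8 to 69.9 FPKM in D. simulans adults, and was at 0 in 8 of 12 hybrid larvae. mRpS2 had 0 to 22.1 FPKM in hybrid adults (median 0.781), against 51.6 to 71.2 FPKM in D. sechellia adults and 27.8 to 46.5 FPKM in D. simulans adults, and was at 0 in 10 of 12 hybrid larvae. The hybrid adult values of mRpL17 and mRpS2 lay below both parents without overlap. mRpL33 was at 0 in 6 of 12 hybrid larvae and reached 219 FPKM, against 137 to 232 FPKM in D. sechellia larvae and 79.2 to 111 FPKM in D. simulans larvae. The adult calls for mRpL16, mRpL17 and mRpS2 had adjusted p of 3.44e-10, 1.63e-11 and 7.56e-11, and the larval calls for mRpL17, mRpL33 and mRpS2 had 6.33e-13, 1.03e-05 and 2.53e-13. Among members above 0 in every library, 26 were higher and 7 lower of 37 in adults, and 16 higher and 7 lower of 29 in larvae. How reads of hybrids were assigned to an allele is not given in the sources used here, and its part in the low or high hybrid values was not tested.

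**Figure D5:**
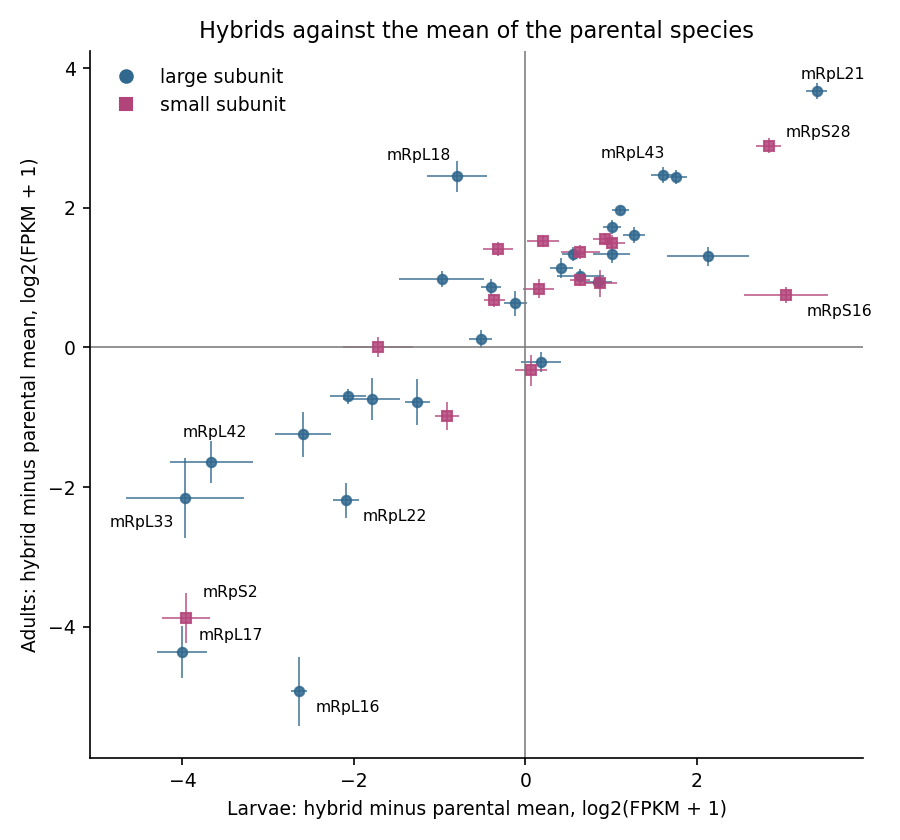
Hybrid minus parental mean in log2(FPKM + 1) for the 42 members, larvae on the x axis and adults on the y axis, with standard errors; circles are large-subunit and squares small-subunit genes. mRpL21 and mRpS28 lie at the top right (3.67 and 2.89 in adults), and mRpL16, mRpL17 and mRpS2 at the bottom left (-4.93, -4.36 and -3.88 in adults).

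Allele columns were compared within hybrid libraries to ask how far the species difference is carried by the alleles themselves. The D. sechellia columns summed to a median of 905074 FPKM in adults and 601784 in larvae, against 165505 and 261289 for the D. simulans columns. Each column was therefore scaled to a total of 1000000, and the ratio depends on that step. In adults the D. sechellia allele was higher in 16 and lower in 9 of 41 members, against 21.9% and 28.5% of tested genes, and the median was 0.27 against -0.11. Without the scaling 35 were higher and 0 lower, against 71.5% and 7.38% of genes. In larvae 9 were higher and 8 lower of 40, against 12.9% and 38% of genes, and the median was 0.32 against -0.47. Without the scaling the larval counts were 23 and 2, against 37.4% and 21.4% of genes. By subunit, the adult ratio was above 0 for 12 and below 0 for 1 of 26 large-subunit genes, and above for 4 and below for 8 of 15 small-subunit genes; in larvae the counts were 9 and 4 of 26, and 0 and 4 of 14. Only 27 members in adults and 16 in larvae were above 0 in every allele column, and among these the counts were 12 and 6 in adults and 5 and 5 in larvae.

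mRpS28, high in hybrids, had 258 to 803 scaled FPKM from the D. sechellia allele and 2093 to 3283 from the D. simulans allele in adults. The ranges did not overlap, and the allelic difference was -2.77 (SE 0.15, adjusted p = 9.24e-10). Before scaling the alleles of mRpS28 had 249 to 615 and 365 to 610 FPKM, and the call was lost (adjusted p = 0.0824). In larvae its difference was -2.71 (SE 0.59, adjusted p = 0.00136). The larval D. sechellia allele of mRpS28 had 0 to 695 scaled FPKM, against 789 to 1126 from the D. simulans allele. mRpS6, which pairs with S18 in bacteria, was lower from the D. sechellia allele in larvae, with a difference of -2.32 (SE 0.56, adjusted p = 0.00283). Its D. sechellia allele had 0 to 112 scaled FPKM in larvae, against 77 to 212 from the D. simulans allele. Before scaling the call of mRpS6 was lost (adjusted p = 0.0692). mRpL21 had 739 to 1808 scaled FPKM from the D. sechellia allele and 770 to 1468 from the D. simulans allele in adults, overlapping ranges with a difference of 0.3 (SE 0.07, adjusted p = 0.00327). In adults mRpS33 (-2.92, SE 0.81, adjusted p = 0.00788) and mRpS17 (-2.44, SE 0.79, adjusted p = 0.0191) were lower from the D. sechellia allele, each with 3 of 12 D. sechellia columns at 0, and neither kept its call without scaling (adjusted p = 0.606 and 0.98).

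The D. sechellia allele of mRpL18 had 17.7 to 142 scaled FPKM in hybrid adults, against 0 in all 12 libraries for the D. simulans allele; the gene was also listed at 0 in all D. simulans libraries. Both alleles were at 0 for mRpL18 in 7 hybrid larvae. The D. sechellia allele of mRpL30 had 81.2 to 222 scaled FPKM in adults and 0 to 52.3 in larvae, while the D. simulans allele was at 0 in 7 of 12 adults and in 12 of 12 larvae. The D. sechellia allele of mRpL22, which lines the exit tunnel, was at 0 in 9 of 12 hybrid larvae and reached 7.43 scaled FPKM, against 24.4 to 116 for the D. simulans allele, so that the ranges did not overlap (adjusted p = 4.14e-07). mRpL13 was called higher from the D. sechellia allele in adults (2.11, SE 0.7, adjusted p = 0.0213) and in larvae (1.77, SE 0.64, adjusted p = 0.0314), and mRpL51 in larvae (1.94, SE 0.76, adjusted p = 0.046). None of these 3 calls of mRpL13 and mRpL51 was stable. With a pseudocount of 0.1 the adjusted p was 0.0881 for mRpL13 in adults, 0.0787 for mRpL13 in larvae and 0.0613 for mRpL51 in larvae. The larval call of mRpL13 was lost when any of 5 of 12 libraries was left out (OO replicate 2, OS replicate 3, SO replicate 3, and SS replicates 1 and 2; adjusted p 0.0535 to 0.0696), and that of mRpL51 when any of 7 was (OO replicates 2 and 3, OS replicate 3, SO replicates 1 and 3, and SS replicates 1 and 2; adjusted p 0.0527 to 0.0976).

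The parental ratio minus the allelic ratio, each from scaled columns, was tested to ask where the alleles in 1 nucleus do not carry the ratio seen between the species. In adults it was above 0 for 6 and below 0 for 19 of 42 members, where 23% of tested genes were above and 33.8% below, with a median of -0.7 against -0.18. Without scaling the counts were 3 and 30, against 17.8% and 51% of genes. In larvae 9 were above, among them mRpL16 with no allelic ratio to test, and 5 below, where 21.9% of genes were above and 21.8% below, with a median of -0.11 against -0.15. Without scaling the larval counts were 13 and 2, against 29.5% and 12.6% of genes. mRpL28, a bacterial-type large-subunit protein measured above 0 in every column, had 105 to 164 scaled FPKM in D. sechellia adults and 151 to 221 in D. simulans adults, but 414 to 595 from the D. sechellia allele and 190 to 336 from the D. simulans allele of hybrid adults. The parental ratio was -0.48 and the allelic ratio 0.94, a difference of -1.41 (SE 0.12, adjusted p = 2.77e-12), and in larvae the difference was -0.87 (SE 0.19, adjusted p = 0.000251). The sign of the parental ratio depended on the scale. The adult species difference of mRpL28 was 0.9 as deposited and 0.08 after median-ratio rescaling. Without scaling of the columns the adult difference between the ratios of mRpL28 was -2.48 (adjusted p = 2.21e-18). For mRpS28 in adults the parental ratio was -0.31 and the allelic ratio -2.77, a difference of 2.45 (SE 0.2, adjusted p = 8.61e-13). For mRpL38 in adults the difference was -1.53 (SE 0.3, adjusted p = 3.79e-05), from a parental ratio of -0.74 and an allelic ratio of 0.8. As deposited the adult species difference was 1.06 for mRpS28 and 0.62 for mRpL38, and after median-ratio rescaling 0.24 and -0.18. Without scaling of the columns the differences between the ratios were 1.36 for mRpS28 and -2.48 for mRpL38, both with a call. mRpL43 in larvae had a parental ratio of -1.78 and an allelic ratio of 0.23, a difference of -2.01 (SE 0.27, adjusted p = 1.03e-07).

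The other members with the widest differences between these ratios had columns listed at 0. They were mRpS33 (adjusted p = 0.000493), mRpL22 (0.0356), mRpL30 (0.00156) and mRpS18C (0.0441) in adults, and mRpS16 (1.23e-07), mRpL22 (1.1e-11) and mRpL50 (0.024) in larvae. mRpL16 was at 0 in all D. simulans larvae and both its alleles in all hybrid larvae, so no p is given for it. With a pseudocount of 0.1 the adult calls of mRpL22 and mRpS18C were lost (adjusted p = 0.0602 and 0.0736), and without scaling that of mRpL22 in adults (adjusted p = 0.408) and that of mRpL50 in larvae (adjusted p = 0.0801). In adults the call of mRpS18C was lost when any of 23 of 36 libraries was left out (adjusted p 0.0502 to 0.0759), and that of mRpL22 when any of 4 hybrid libraries was (OO replicate 2, SO replicates 1 and 2, and SS replicate 2; adjusted p 0.0533 to 0.0897). In larvae the call of mRpL50 was lost without hybrid SS replicate 1 (adjusted p = 0.0501). Without hybrid adults OO replicate 2, 3 rather than 6 members were above 0. Of cytosolic ribosomal protein genes, 15 were above and 29 below 0 of 51 in adults, and 22 and 14 of 52 in larvae.

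The media histories were compared within each genotype and stage from its own 12 libraries, for octanoic acid against standard medium in the current generation, in the previous generation, and for the interaction of both. No member was called in any of the 18 comparisons. Few genes of the whole table were called either: 0% in each comparison of hybrid adults and D. simulans adults, 0.0161% for the interaction and 0% for both media effects in D. sechellia adults, 0.0445%, 0.0445% and 0.0296% for current medium, previous medium and interaction in hybrid larvae, 0%, 0.0145% and 0% in D. sechellia larvae, and 0.0153% in each comparison of D. simulans larvae. At an unadjusted p under 0.05 limma had 0, 2 and 1 members for current medium, previous medium and interaction in hybrid adults, 0, 0 and 0 in D. sechellia adults and 0, 0 and 1 in D. simulans adults. In larvae it had 1, 2 and 4 in hybrids, 1, 1 and 0 in D. sechellia and 0, 3 and 0 in D. simulans. Over all tested genes the same counts in hybrid adults were 660, 248 and 239 of 5915. They were 57, 96 and 111 of 6220 in D. sechellia adults and 116, 159 and 102 of 5545 in D. simulans adults. For larvae they were 298, 203 and 214 of 6749 in hybrids and 109, 146 and 428 of 6879 in D. sechellia. D. simulans larvae had 140, 1727 and 32 of 6525 genes, against 0, 3 and 0 of 39 members.

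The member medians moved little between histories. Single members moved more in hybrids, where the median span of a member across the histories was 0.52 in adults and 0.93 in larvae. For the interaction in D. sechellia adults 1 of 42 members was above 0, with a median of -0.25 against -0.04 over all genes. No member there had an unadjusted limma p under 0.05, and signs of members from the same libraries are not independent. In D. sechellia adults the median member stood at 6.97, 7.02, 7.16 and 6.95 log2(FPKM + 1) in OO, OS, SO and SS animals, and in D. simulans adults at 5.92, 5.89, 5.79 and 5.89. In D. sechellia larvae it stood at 5.79, 5.92, 5.85 and 5.78, and in D. simulans larvae at 4.43, 4.41, 4.31 and 4.33. In hybrids it stood at 7, 7.02, 6.97 and 7.25 in adults and at 5.02, 4.97, 4.9 and 5.16 in larvae. The median residual SD of a member within a history was 0.51 in hybrid, 0.24 in D. sechellia and 0.14 in D. simulans adults, and 0.65, 0.22 and 0.25 in larvae, so the replicates of hybrids spread more than those of the parents.

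The member with the smallest adjusted p for a medium was mRpL43 in D. simulans larvae, with a difference of -0.21 for octanoic acid against standard medium in the previous generation (SE 0.08, adjusted p = 0.138). It had 32, 54.5 and 39.9 FPKM in OO larvae and 31.8, 37.3 and 37.8 FPKM in OS larvae, against 65, 59.8 and 52.1 FPKM in SO larvae and 37.4, 49.3 and 51.4 FPKM in SS larvae. OO replicate 2 was the highest of the 6 libraries with octanoic acid before. Without it 2 members passed the test, mRpL43 (-0.26, adjusted p = 0.0321) and mRpL30, whose 3 D. simulans larval libraries above 0 all had octanoic acid in the previous generation. In D. simulans adults the member of smallest p was mRpL48, for the interaction, with a difference of 0.37 (SE 0.1, limma adjusted p = 1). mRpL48 had 57.4, 59.4 and 55.8 FPKM in OO adults and 48.3, 48.4 and 51.1 FPKM in OS adults, against 49, 44.6 and 47.3 FPKM in SO adults and 52.7, 52.3 and 51.6 FPKM in SS adults.

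For the current medium the members with the smallest p in adults were mRpS28 in hybrids (-0.14, SE 0.07, adjusted p = 0.471), mRpS33 in D. sechellia (-0.09, SE 0.07, adjusted p = 0.999) and mRpS33 in D. simulans (-0.07, SE 0.03, adjusted p = 1). In larvae they were mRpL30 in hybrids (adjusted p = 0.999; 5 of 12 libraries at 0), mRpL33 in D. sechellia (0.12, SE 0.05, adjusted p = 1) and mRpL43 in D. simulans (0.14, SE 0.08, adjusted p = 1). In hybrid larvae mRpS17 had an interaction of 1.98 (SE 0.71, adjusted p = 0.999) and mRpL38 a difference of 0.41 for the previous medium (SE 0.17, adjusted p = 1). Both were called when all 36 larval libraries shared 1 estimate of the spread (adjusted p = 0.0291 and 0.0382). mRpS17 had 32.8, 44.8 and 26 FPKM in OO hybrid larvae and 27.3, 8.68 and 11.2 FPKM in OS ones, against 19, 13.7 and 18.3 FPKM in SO and 21.4, 31.6 and 37.6 FPKM in SS ones, and the range of the OS libraries overlapped those of SO and of SS. The remaining members of smallest p were mRpS7 in hybrid adults (0.25, SE 0.11), mRpL38 in D. sechellia adults (-0.14, SE 0.07), mRpL48 in D. simulans adults (0.05, SE 0.03) and mRpS7 in D. sechellia larvae (0.14, SE 0.06) for the previous medium. For the interaction they were mRpS16 in hybrid adults (-1.3, SE 0.42), mRpL30 in D. sechellia adults (-0.46, SE 0.26), mRpL42 in D. sechellia larvae (-0.83, SE 0.41) and mRpL33 in D. simulans larvae (0.32, SE 0.23).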

How the data were processed

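RNA of 72 whole-animal libraries was analysed from 1 table of 7836 genes and 96 columns, 48 for the parental libraries and 48 for both alleles of 24 hybrid libraries. The deposited values are FPKM made by the authors, who used FastQC, Bowtie2 and Cufflinks per the submitters' processing notes. Not given in the sources used here are versions, genome builds and how hybrid reads were assigned to alleles. Read depth is unknown, and the number of libraries limits the precision. The table gives no coordinates, and 0 of its names matched the RefSeq gene table, so neither positions nor sequences are shown.

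Within each fit, genes reaching 1 FPKM in 3 or more of its libraries were kept. log2(FPKM + 1) was modelled by limma 3.58.1 (R 4.3.3) using a mean-variance trend and 1 mean per group. Adding 1 understates changes of low genes. A fit held the libraries compared: 1 genotype for stage and media, both parental species for species and for stage by species, and 36 libraries for hybrids. Allele columns were scaled to a total of 1000000, and the allelic ratio was fitted with the library as a block. The parental minus allelic ratio was fitted over parental and allele columns, with a within-library correlation of 0.0926 in adults and 0.174 in larvae. The pipeline was tested on simulated data. Plots used matplotlib 3.10.9, and tables used pandas 2.3.3 and numpy 2.4.6 under Python 3.11.15.

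The members and gene lists were chosen with earlier results of these data known. Named genes are up to 5 called members of widest difference per direction and a mean of at least 5 FPKM for stage and species, up to 3 for the other comparisons and up to 4 for media, or the member of smallest p where none was called, members listed at 0 in 1 species, and the 3 highest and 3 lowest means. A few others (mRpL42, mRpL52, mRpL32, mRpS28, mRpS33, mRpL22, mRpS2, mRpS17, mRpL21, mRpL28 and mRpL43) were named in some comparisons after their values were seen.

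Alternatives were median-ratio rescaling, a pseudocount of 0.1, no filter, no trend, the replicate number as a block, all 36 libraries of a stage, variance weights per genotype, unscaled allele columns, no library block, and each library left out. Libraries scaled to 1 total, and counts over members above 0 in every library, were chosen after seeing the data.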

Additional observations from a re-analysis of the deposited data

Results flagged for a closer look

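The tests below ask whether an effect differed between 2 settings, the stage effect between the species or the species ratio between parents and alleles, and each had an adjusted p under 0.05 in limma. For the stage effect, D. sechellia minus D. simulans, 5 members were above 0 and 24 below, where 31% of tested genes were above and 21.7% below. The largest values above 0 were 2.11 for mRpL18, which was listed at 0 in all D. simulans libraries so that the value is the stage difference of D. sechellia alone, 1.29 for mRpL43 and 0.40 for mRpL46. The call of mRpL46 was lost after median-ratio rescaling (adjusted p = 0.159). The largest below 0 were -5.22 for mRpS16, -3.22 for mRpL30 and -3.21 for mRpL16, which were listed at 0 in 10, 9 and 12 of 12 D. simulans larvae. Such fitted values depend on the pseudocount and are no bound on a fold.

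For the parental minus the allelic ratio in adults, 6 members were above 0 and 19 below, where 23% of tested genes were above and 33.8% below. The named ones were mRpS33 (3.98), mRpS28 (2.45) and mRpL22 (1.46) above, and mRpL30 (-4.11), mRpS18C (-1.9) and mRpL38 (-1.53) below. Of these, mRpS18C lost its call when any of 23 of 36 libraries was left out. The call of mRpL22 was lost when any of 4 libraries was left out, and without scaling (adjusted p = 0.408). With a pseudocount of 0.1 both calls were lost. In larvae 9 were above and 5 below, where 21.9% of tested genes were above and 21.8% below. Among the 15 members above 0 in every larval column, 1 was above and 4 below. The named larval members were mRpS16 (5.91), mRpL22 (4.97) and mRpL16 (4.87) above, and mRpL50 (-2.13), mRpL43 (-2.01) and mRpL28 (-0.87) below. The call of mRpL50 was lost without scaling (adjusted p = 0.0801). In larvae mRpL16 was at 0 in all D. simulans libraries and in all allele columns, so its value only restates D. sechellia against zeros and tests no allelic ratio. mRpS28, mRpL38, mRpL43 and mRpL28 were above 0 in every column of these named fits.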

How the results depend on the processing

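With median-ratio rescaling the members called higher fell to 23 for stage in hybrids, to 2 for stage by species and to 19 for species in adults, where 4 became lower. With libraries scaled to 1 total the species counts were 6 higher and 27 lower in adults and 15 and 13 in larvae. Unscaled allele columns gave 35 higher and 0 lower for the allelic ratio in adults and 23 and 2 in larvae, and 3 higher and 30 lower for the parental minus allelic ratio in adults and 2 lower in larvae. Counting only members above 0 in every library or column gave 7 lower for hybrids at either stage, 5 higher and 5 lower for the larval allelic ratio, and 1 higher for the larval parental minus allelic ratio. With all 36 libraries of the stage, 0 members were lower between species in larvae, and 1 was called for the previous medium and 1 for the interaction in hybrid larvae.

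Leaving out 1 library at a time gave the following ranges of members. For stage, 38 to 40 were higher and 0 to 0 lower in hybrids, 41 to 42 and 0 to 0 in D. sechellia, and 39 to 40 and 1 to 1 in D. simulans. For stage by species, 4 to 5 were higher and 21 to 25 lower. For species, 41 to 41 were higher and 0 to 0 lower in adults, and 41 to 41 and 1 to 1 in larvae. For hybrids, 27 to 27 were higher and 9 to 11 lower in adults, and 18 to 20 and 15 to 17 in larvae. For the allelic ratio, 14 to 17 were higher and 8 to 10 lower in adults, and 6 to 10 and 7 to 9 in larvae. For the parental minus allelic ratio, 3 to 6 were higher and 17 to 23 lower in adults, and 8 to 10 and 4 to 7 in larvae. For media, 0 to 2 members were called for the previous medium in D. simulans larvae and 0 to 0 in the other 17 comparisons.

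With the replicate number as a block, the counts for stage by species were 5 higher and 25 lower, and no call of a named member changed. The labels give no shared source for a number, and in no genotype and stage were all of the 18 correlations between deviations of same-numbered libraries over 0.1, so the numbers were not taken as pairs. The correlations ranged from -0.75 to 0.62 in D. sechellia adults. D. simulans larvae came nearest to a pairing, with 14 of 18 correlations over 0.1 (median 0.38) and 10 of 12 libraries correlating best with their own number, against 9 of 12 in hybrid larvae, a hint from the data and not from the design. In each of the 4 histories of D. simulans larvae replicate 2 had the highest and replicate 3 the lowest summed FPKM. With the block 0 members were called for media in D. simulans and in hybrid larvae. Limits are the scale between genotypes and between allele columns, which no value in the table fixes, and values listed at 0 in D. simulans and in hybrids.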
